A study of Mus musculus with 33 samples.

Results

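The transcription factor p53 is held at low levels by the ubiquitin ligase MDM2 and accumulates when cells sense DNA damage, oncogene activity or other stress. It then binds DNA as a tetramer and raises the expression of genes that stop the cell cycle, trigger apoptosis, repair DNA or adjust metabolism, and of *Mdm2* itself, which closes a negative feedback loop. *Trp53*, the mouse gene for p53, is one of the genes most often lost as colorectal tumours advance, and the AKP genotype examined here combines its loss with other engineered alleles, among them loss of *Apc*.

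The genes described are 38 established p53 targets, listed by symbol. They were chosen for their known regulation and not for their values in these libraries, although earlier results of the data were known when the list was made. All 38 were found among the 32285 gene identifiers counted in each library. All 38 passed the expression filter of at least 1 CPM (counts scaled to the size of the library) in at least 3 libraries, as did 13606 genes in all. The levels in CPM given below are also scaled by the TMM factor of the library. *Trp53* is described beside them as the targeted gene.

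RNA of 33 mouse colon organoid libraries was sequenced from transcript 3′ ends (QuantSeq). All organoids had been cultured for 3 days and then kept in basal medium for 24 h. Control organoids (6 libraries) carried the engineered AKP alleles, *Apc* fl/fl and *Trp53* fl/fl among them, together with OptoCre, a Cre recombinase switched on by blue light in the presence of doxycycline, but were not induced. Organoid AKP (6 libraries) were the same cells after blue light, passaged in parallel as conventional organoids. Mini-colon AKP lines, numbered #i to #v with 3 libraries each, came from tumours that grew after blue light in mini-colons, hydrogel tubes lined by colon epithelium, with #i and #ii from the lumen-enriched and #iii, #iv and #v from the crypt-enriched tumour class. In vivo AKP organoids (6 libraries) were grown from colon tumours of mice with the AKP alleles and Cdx2-creERT2, a tamoxifen-dependent Cre driven by the promoter of an intestinal epithelial gene. The mice received tamoxifen at 8 to 10 weeks of age and tumours were taken 6 weeks later. Each mini-colon line is thus 1 line in 3 libraries. The study's methods describe the libraries as independent sets of samples and as cultures, but the labels tie none to a separate induction, tumour or mouse, so p-values measure the spread between cultures of a line.

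Total counts per library ranged from 2438672 to 8256526. Library codes hold the letter E or F, whose meaning is not stated. All libraries of #i, #ii and #iii carry E, all of #iv and #v carry F, and each line with 6 libraries has 3 of either letter. Markers of colon epithelium were present in every line, with summed levels of 10 markers between 14505 and 15381 CPM in control libraries and between 3362 and 3971 CPM in AKP libraries. Of 6 fibroblast, 5 immune and 3 endothelial markers, 1 of each passed the expression filter.

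*Trp53* is the gene that the engineered alleles target, so its 3′ tags were examined first. Control libraries held 14.4 to 19.1 CPM of *Trp53* tags (median 17.2) and organoid AKP libraries 1.07 to 3.77 CPM (median 1.38), a log2 fold change (log2FC) of -3.30 (standard error, SE, 0.21 and Benjamini-Hochberg adjusted p = 8.39e-16 by edgeR's quasi-likelihood test, as in all comparisons below). The libraries of #i held 3.22, 3.21 and 3.06 CPM, those of #ii 2.01, 2.37 and 2.29 CPM, those of #iv 1.97, 2.79 and 2.09 CPM and those of #v 3.15, 2.63 and 3.93 CPM. The 3 libraries labelled mini-colon AKP #iii stood apart from these lines with 10.5, 11.7 and 7.36 CPM, above every other OptoCre AKP library and below every control library (log2FC -0.77 against control, SE 0.21, adjusted p = 0.00169). In vivo AKP held 19.2 to 34.2 CPM (median 24.5), with its lowest library just above the highest control library. By the study's methods the recombined *Trp53* allele lacks internal exons, and tags read from the 3′ end do not show whether an allele was recombined. *Trp53* tags therefore check the labels of no line, and the AKP names below are those of the labels.

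*Cdkn2a*, which encodes the p53 activator ARF and the cell cycle inhibitor p16, also set #iii apart. Control libraries held 124 to 131 CPM of *Cdkn2a* and organoid AKP 188 to 243 CPM. The 3 libraries of #iii held 13, 20.1 and 16.1 CPM, lower than all other libraries, and the log2FC against organoid AKP was -3.68 (SE 0.12, adjusted p = 1.23e-21, edgeR). In vivo AKP lay at the other end with 714 to 786 CPM. *Krt20*, a marker of differentiated colonocytes, was at 2.88 ± 0.928 CPM in #iii (SD, n = 3) and 645 ± 94.5 CPM in control (SD, n = 6), and no other AKP line had a mean above 3.63 CPM. By this marker #iii lay with the AKP lines. Since #iii stands apart in *Trp53* and *Cdkn2a* tags, the counts below that turn on it are also given without it.

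**Figure D1:**
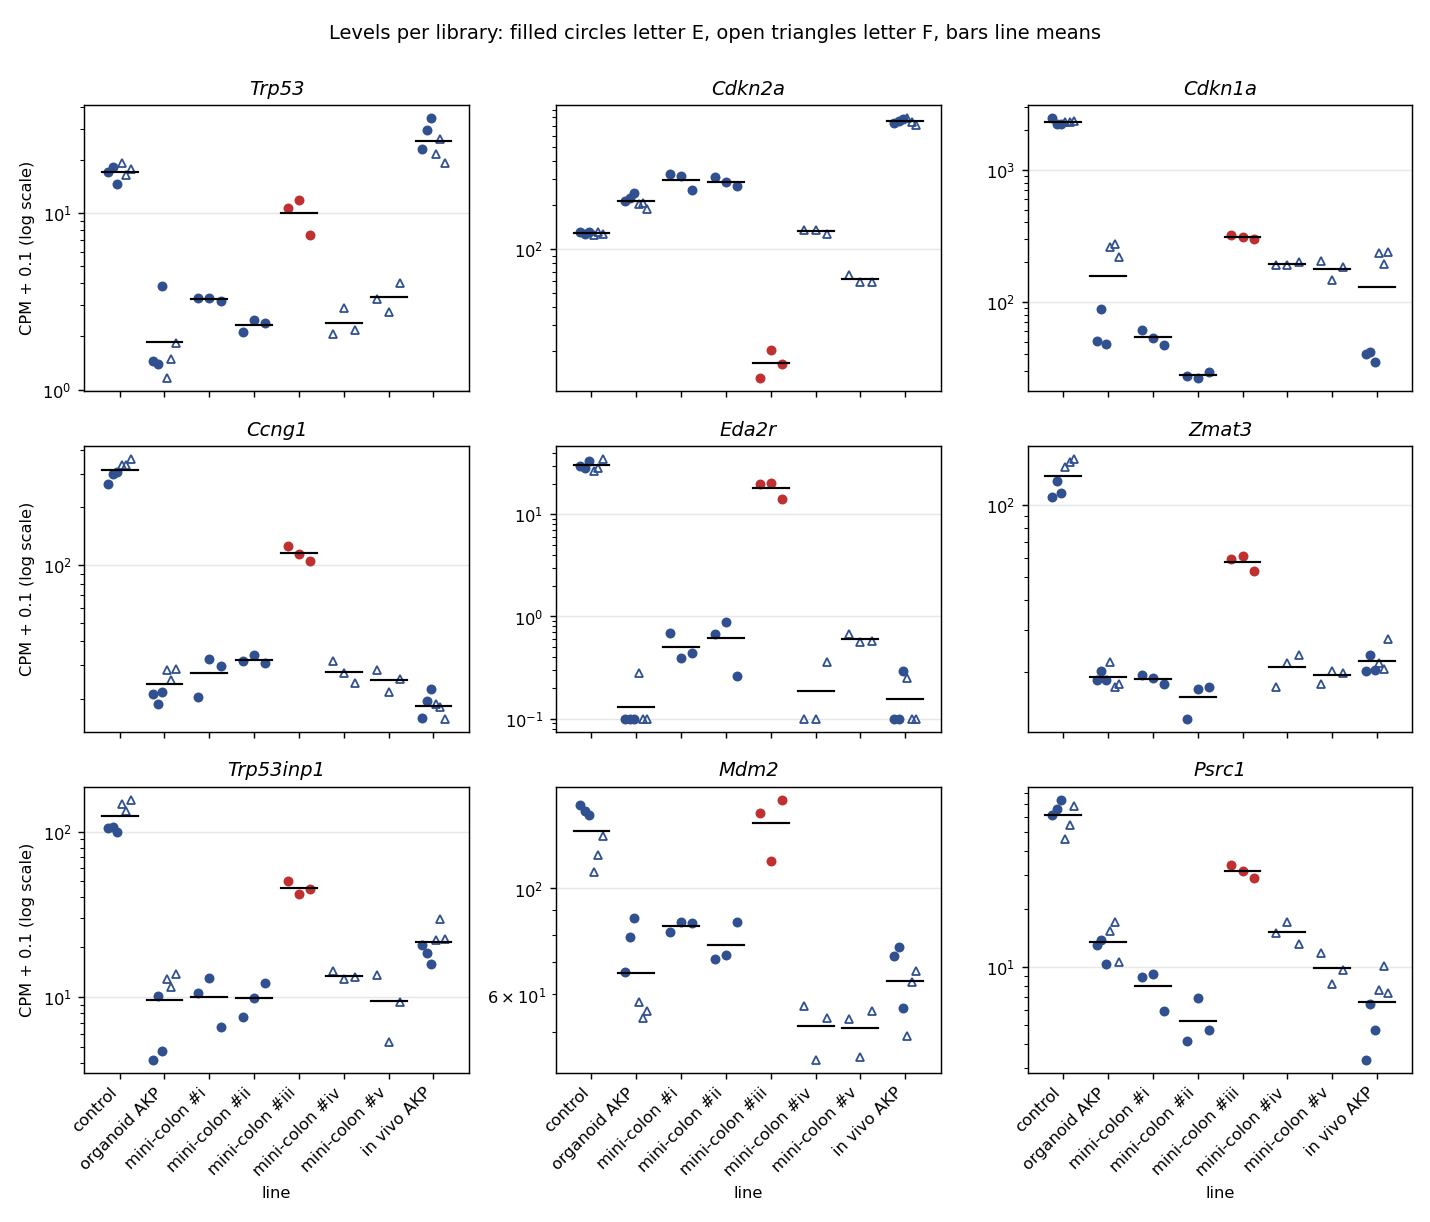
Levels of *Trp53*, *Cdkn2a* and 7 p53 target genes in all 33 libraries, in CPM + 0.1 on a log axis, by line. Filled circles are libraries of letter E, open triangles of letter F, red marks the 3 libraries of mini-colon AKP #iii, and bars are line means. The libraries of #iii lie between control and the other OptoCre AKP lines for *Trp53*, *Ccng1*, *Eda2r*, *Zmat3*, *Trp53inp1* and *Psrc1*, at control level for *Mdm2* and at the bottom for *Cdkn2a*.

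The p53 binding sites of several members can be read from the reference genome. A p53 site consists of 2 copies of a 10-base half-site, each with a 4-base core of a C, 2 bases that are A or T, and a G. Within 3000 bases on either side of the canonical transcript start (GRCm39, GENCODE M39), 7 of 38 members (18.4%) held at least 1 pair of adjoining half-sites with at most 1 mismatch to the consensus, against 90 of 12518 tested protein-coding genes (0.719%). These members were *Ccng1*, *Cdkn1a*, *Gdf15*, *Gtse1*, *Psrc1*, *Rps27l* and *Zmat3*. Of these 7, 5 were lower in organoid AKP than in control, *Gdf15* was higher and *Gtse1* was not called. With no mismatch and up to 13 bases between the half-sites, 4 members (*Cdkn1a*, *Pidd1*, *Trp53inp1* and *Zmat3*) and 228 genes (1.82%) had a site. The members were chosen for their known regulation by p53, so these shares are not an independent test. Members without a site by either search included *Mdm2*, *Eda2r*, *Ddit4l*, *Btg2* and *Bbc3*, which the results also turn on. The 5 sites below belong to genes that the results turn on and that were lower in each AKP line. They are written 5′ to 3′ on the strand of the gene, with the core of each half-site in capitals. The half-site motif is symmetric, so both strands were covered, and a match describes the sequence and not binding.
Cdkn1a: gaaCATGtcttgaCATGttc
Ccng1: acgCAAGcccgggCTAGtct
Psrc1: gggCATGttgaggCATGccc
Zmat3: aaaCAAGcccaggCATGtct
Trp53inp1: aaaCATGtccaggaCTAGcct
The *Cdkn1a* site (chr17:29309902-29309921, plus strand) and the *Trp53inp1* site (chr4:11155112-11155132, plus strand) lie upstream of the canonical transcript, 2826 and 1290 bases before its start. The *Ccng1* site (chr11:40645763-40645782, minus strand) and the *Zmat3* site (chr3:32418480-32418499, minus strand) lie in intron 1, 366 and 1418 bases after the start, and the *Psrc1* site (chr3:108291972-108291991, plus strand) lies in intron 3, 862 bases after the start. Only the *Zmat3* site matches the consensus at every base with no spacer, which 14 of all 12518 genes do.

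Most of the 38 members were lower in each AKP line than in control. In organoid AKP, 26 of 38 members were lower and 6 higher, where 33.6% of all tested genes were lower and 37.3% higher. The median log2FC of the 38 members was -1.24, beside 0.06 for all tested genes. The same comparison had 24 lower and 5 higher members in #i (33.5% and 33.9% of all genes), 24 and 6 in #ii (33.9% and 35.0%), 27 and 5 in #iv (29.6% and 33.3%), 27 and 3 in #v (31.3% and 34.6%), and 28 and 5 in in vivo AKP (33.3% and 38.9%). The medians of these 6 lines lay between -1.38 in in vivo AKP and -1.13 in #i and #iv. In #iii, 22 members were lower and 9 higher (33.8% and 34.3%), with a median of -0.77, the closest to 0 of the 7 lines. All 7 comparisons share the control libraries. Levels from whole organoids cannot tell apart fewer cells expressing a gene and less RNA per cell, and the fall in summed colon epithelial markers given above moved with these differences; its part in them was not tested.

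Across the 7 comparisons, 20 members were lower in each, namely *Ak1*, *Apaf1*, *Bbc3*, *Btg2*, *Ccng1*, *Cdkn1a*, *Dcxr*, *Ddit4l*, *Eda2r*, *Ei24*, *Ercc5*, *Fas*, *Perp*, *Phlda3*, *Polk*, *Psrc1*, *Sesn1*, *Tnfrsf10b*, *Trp53inp1* and *Zmat3*. *Ckap2*, *Ddb2* and *Tigar* were higher in each, *Aen*, *Gtse1* and *Plk2* were called in both directions in different lines, and *Fdxr* and *Xpc* were called in none. Without #iii, 22 members were lower in each of the other 6 comparisons, with *Bax* and *Mdm2* added to those named, and the same 3 were higher. The remaining members were called in 1 direction in some lines. The share of all tested genes called the same way in every comparison was not counted, and the comparisons share the control libraries. Of the 20 members, *Fas* passed the expression filter only through control and *Eda2r* only through control and #iii.

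**Figure D2:**
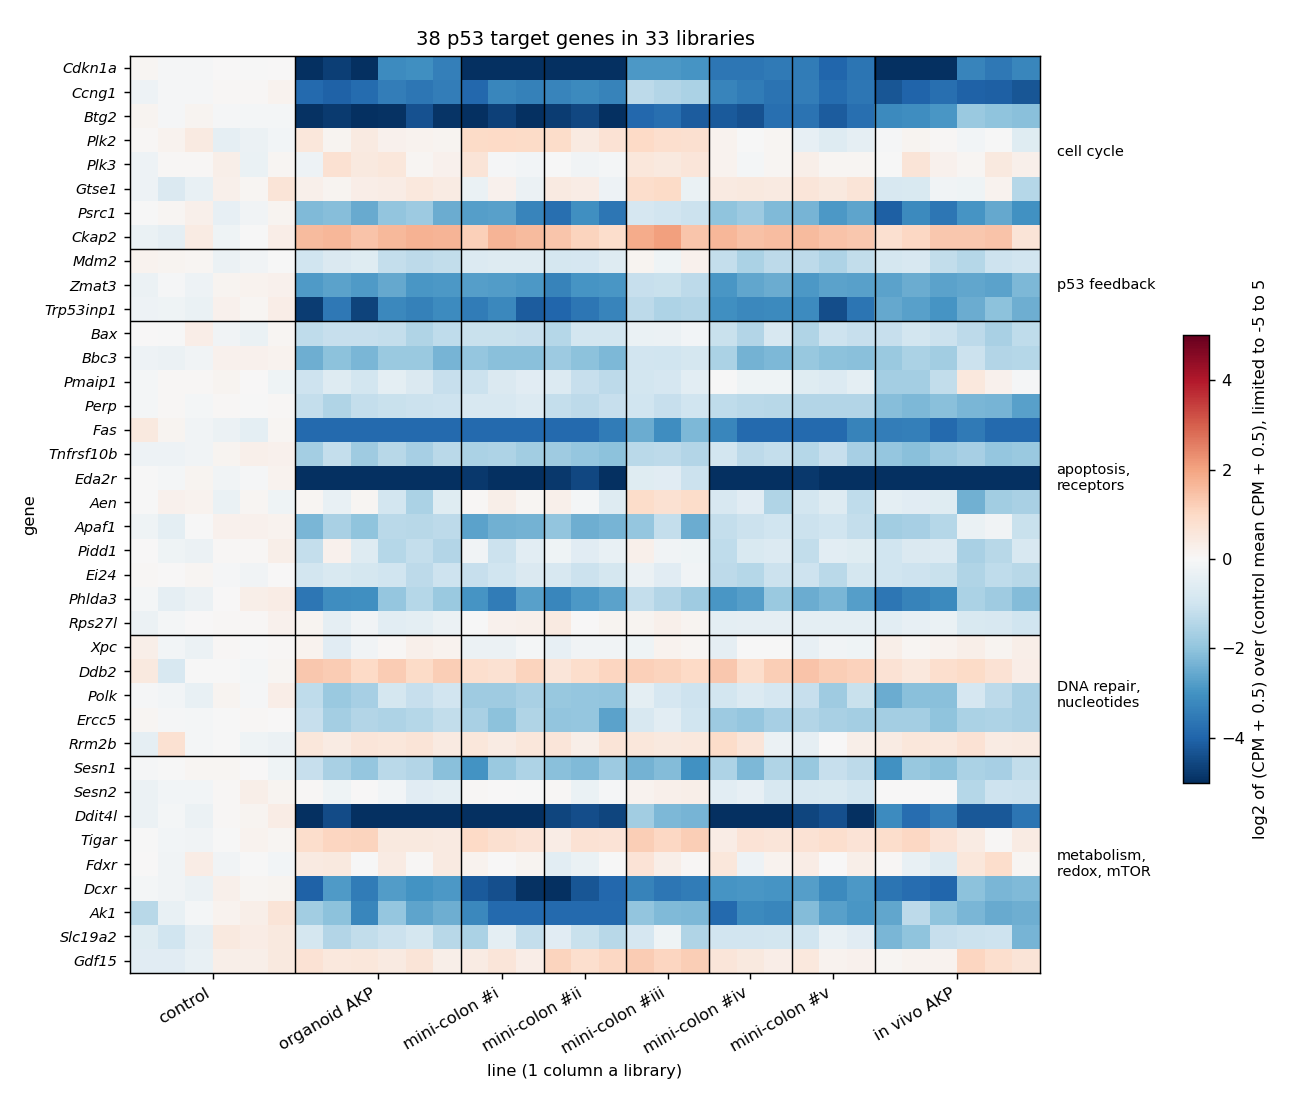
All 38 members in all 33 libraries, as the log2 of (CPM + 0.5) over (control mean CPM + 0.5), limited to -5 to 5. Rows are genes grouped by role and columns are libraries grouped by line. Most rows are blue in all 7 AKP lines, paler in the 3 columns of #iii, while *Ckap2*, *Ddb2* and *Tigar* are red in each AKP line.

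Of the 8 members that act on the cell cycle, 4 were lower and 2 higher in organoid AKP than in control, beside the 33.6% and 37.3% of all genes given above. *Cdkn1a*, which encodes the CDK inhibitor p21, was at 2213 to 2454 CPM (median 2307) in control. Organoid AKP libraries held 47.7 to 274 CPM (median 153), the libraries of #i 61.1, 52.8 and 47.3 CPM, those of #ii 27.3, 26.5 and 29.5 CPM, those of #iii 319, 313 and 301 CPM, those of #iv 189, 190 and 200 CPM, those of #v 204, 147 and 183 CPM, and in vivo AKP 34.9 to 238 CPM (median 117). No AKP library overlapped the control libraries, and the AKP libraries fell into a lower and a higher range. In organoid AKP, *Cdkn1a* was at 62.3 ± 22.7 CPM in E libraries and 250.5 ± 28.9 CPM in F libraries, and in in vivo AKP at 38.9 ± 3.48 and 222 ± 25.2 CPM (SD, n = 3 each), while control held 2304 ± 131 and 2316 ± 22.0 CPM. The log2FC of organoid AKP against control was -3.87 over all libraries (SE 0.47, adjusted p = 3.85e-08, edgeR), -5.25 within E (SE 0.16) and -3.27 within F (SE 0.10). The 3 libraries of #iii, all of letter E, lay above all other AKP libraries of either letter. *Cdkn1a* was 1 of 7 members whose difference between organoid AKP and control changed with the letter, as did that of 13.2% of all tested genes. For in vivo AKP such a change was found in 16 members against control (31.9% of all genes) and in 7 against organoid AKP (21%).

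*Ccng1*, encoding cyclin G1, which recruits a phosphatase to MDM2, separated #iii from both sides. Control libraries held 265 to 356 CPM (median 318) of *Ccng1* and organoid AKP 18.8 to 28.5 CPM (median 23.3), a log2FC of -3.70 (SE 0.12, adjusted p = 7.99e-24, edgeR). Libraries of #i held 20.5, 32.1 and 29.6 CPM, those of #ii 31.3, 33.9 and 30.8 CPM, those of #iii 126, 115 and 105 CPM, those of #iv 31.5, 27.3 and 24 CPM, those of #v 28.3, 21.7 and 25.2 CPM, and in vivo AKP 15.7 to 22.5 CPM (median 18.4). The 3 libraries of #iii lay between control and every other AKP library, with no overlap on either side.

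*Btg2*, an antiproliferative cofactor of mRNA deadenylation, followed another order. It was at 196 to 234 CPM (median 204) in control and 4.58 to 9.79 CPM (median 6.51) in organoid AKP, a log2FC of -4.91 (SE 0.21, adjusted p = 8.28e-20, edgeR). In #i the libraries held 5.56, 7.88 and 4.76 CPM of *Btg2*, those of #ii 7.47, 8.41 and 5.08 CPM, those of #iii 13.5, 15.0 and 11.2 CPM, those of #iv 11, 9.93 and 14.9 CPM, those of #v 15.7, 11.5 and 15.1 CPM, and in vivo AKP 23.0 to 57.2 CPM (median 38.4). In vivo AKP libraries were all above those of the other AKP lines, and #iii overlapped #iv and #v.

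*Psrc1*, a microtubule-associated protein of the mitotic spindle, was at 46.0 to 73.1 CPM (median 63.7) in control and 10.2 to 17.1 CPM (median 13.3) in organoid AKP. The 3 libraries of #i held 8.77, 9.04 and 5.78 CPM of *Psrc1*, those of #ii 4.02, 6.83 and 4.59 CPM, those of #iii 33.7, 31.3 and 28.7 CPM, those of #iv 14.9, 17.1 and 13.1 CPM, those of #v 11.7, 8.06 and 9.52 CPM, and in vivo AKP 3.20 to 9.998 CPM (median 6.77). As with *Ccng1*, the libraries of #iii overlapped neither control nor any other AKP line. The other cell cycle members moved differently. *Ckap2*, a spindle protein that peaks in mitosis, rose from 27.1 ± 6.90 CPM in control (SD, n = 6) to means that ranged from 60.3 CPM (in vivo AKP) to 94.2 CPM (#iii). *Plk2*, a kinase of centriole duplication, ranged from 35.9 ± 3.41 CPM in #v to 100.1 ± 0.800 CPM in #i (SD, n = 3 each), with 50.9 ± 12.2 CPM in control (SD, n = 6). *Gtse1*, which exports p53 from the nucleus in G2, was higher than control in #iii and lower in in vivo AKP, and *Plk3* was called against control in #iii, at 17.2 ± 0.716 CPM, and in no other line. Of 20 cell cycle genes that p21 and the DREAM complex repress, all 20 were higher than control in each of the 7 AKP lines, #iii included. Of all tested genes, between 33.3% (#iv) and 38.9% (in vivo AKP) were higher than control. Against organoid AKP, 3 of the 20 were lower in #iii, beside 8.78% of all tested genes.

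The 3 members that feed back on p53 were lower than control in all AKP lines except for *Mdm2* in #iii. Of all tested genes, between 29.6% (#iv) and 33.9% (#ii) were lower than control. *Mdm2* was at 108 to 149 CPM (median 135) in control and 53.4 to 86.8 CPM (median 62.3) in organoid AKP, a log2FC of -0.99 (SE 0.12, adjusted p = 6.07e-09, edgeR). For #i the values were 81.0, 84.9 and 84.4 CPM of *Mdm2*, those of #ii 71.2, 72.5 and 84.9 CPM, those of #iii 144, 114 and 153 CPM, those of #iv 56.8, 43.7 and 53.5 CPM, those of #v 53.3, 44.3 and 55.3 CPM, and in vivo AKP 49.1 to 75.5 CPM (median 65.4). The libraries of #iii overlapped the control range, and the log2FC of #iii against control was 0.06 (SE 0.14, adjusted p = 0.746, edgeR).

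*Zmat3*, an RNA-binding protein that controls splicing and carries the perfect p53 site printed above, was at 108 to 155 CPM (median 135) in control and 17.2 to 21.9 CPM (median 18.4) in organoid AKP, a log2FC of -2.81 (SE 0.11, adjusted p = 1.46e-21, edgeR). The libraries of #iii held 59.1, 61.0 and 52.6 CPM of *Zmat3*, while those of #i held 19.3, 18.7 and 17.7 CPM, those of #ii 12.6, 16.8 and 17.2 CPM, those of #iv 17.1, 21.7 and 23.5 CPM, those of #v 17.8, 20.1 and 19.8 CPM and in vivo AKP 20.1 to 27.3 CPM (median 21). *Trp53inp1*, a nuclear stress protein that promotes phosphorylation of p53 and autophagy, was at 99.6 to 154 CPM (median 120) in control and 4.08 to 13.6 CPM (median 10.8) in organoid AKP, a log2FC of -3.65 (SE 0.22, adjusted p = 3.30e-16, edgeR). Its libraries of #iii held 49.99, 41.9 and 44.9 CPM, those of #i 10.5, 12.8 and 6.46 CPM, those of #ii 7.47, 9.72 and 12.1 CPM, those of #iv 14.3, 12.7 and 13.1 CPM, those of #v 13.5, 5.27 and 9.28 CPM and in vivo AKP 15.7 to 29.6 CPM (median 21.3). For both genes #iii was the highest AKP line with no overlap.

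Of the 13 members that promote apoptosis or encode death receptors, 12 were lower in organoid AKP than in control, with *Aen* the exception. Of all tested genes, 33.6% were lower in this comparison. *Eda2r*, a receptor of the TNF family, was all but absent outside control and #iii. Control libraries held 26.4 to 34.4 CPM (median 29.0) of *Eda2r*, while all 6 organoid AKP libraries together held 1 count, all 3 of #iv 1 count and all 6 of in vivo AKP 2 counts. Libraries of #i held 0.585, 0.292 and 0.340 CPM, those of #ii 0.574, 0.788 and 0.164 CPM and those of #v 0.573, 0.465 and 0.476 CPM. The 3 libraries of #iii held 19.6, 19.9 and 14.0 CPM, below control and far above all other AKP libraries. From the counts, *Eda2r* was 852-fold higher in control than in organoid AKP with a 95% exact Poisson interval from 153 to 33671, which covers counting error of the single organoid AKP count only, and the edgeR adjusted p was 1.38e-21.

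*Fas*, the receptor of Fas ligand, was at 6.91 ± 1.89 CPM in control (SD, n = 6) and had no count in organoid AKP or #i, so that it was at least 62.1-fold and 21.5-fold higher in control, against a floor of 3 counts over each line. In #iii it reached 0.749 ± 0.350 CPM (SD, n = 3). *Fas* passed the expression filter only through control, the group where it is high. *Bbc3*, which encodes the BH3-only protein PUMA, was at 52.1 to 73.1 CPM (median 64.0) in control and 11.2 to 17.1 CPM (median 13.7) in organoid AKP, a log2FC of -2.15 (SE 0.14, adjusted p = 2.97e-15, edgeR). Among the mini-colon lines, libraries of #i held 16.4, 14.3 and 14.3 CPM of *Bbc3*, those of #ii 17.8, 14.7 and 12.9 CPM, those of #iii 32.0, 31.6 and 34.0 CPM, those of #iv 20.5, 11.8 and 12.8 CPM, those of #v 16.6, 14.9 and 14.5 CPM, and in vivo AKP 17.3 to 30.1 CPM (median 21.5). The order was control, then #iii, then in vivo AKP, whose lowest libraries overlapped the other lines.

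*Perp*, a membrane protein of desmosomes, did not set #iii apart. It was at 351 to 395 CPM (median 382) in control and 132 to 185 CPM (median 170) in organoid AKP, a log2FC of -1.18 (SE 0.08, adjusted p = 1.98e-14, edgeR). In the mini-colon lines, #i held 219, 214 and 233 CPM of *Perp*, those of #ii 165, 152 and 169 CPM, those of #iii 188, 169 and 187 CPM, those of #iv 155, 146 and 143 CPM, those of #v 135, 137 and 137 CPM, and in vivo AKP 56.9 to 87.3 CPM (median 78.7). The highest AKP line was #i and the lowest in vivo AKP, neither of which overlapped another line. Among the other members of this group, *Bax*, the pore-forming effector of apoptosis, was at 15.6 ± 2.57 CPM in control (SD, n = 6), 12.9 ± 0.975 CPM in #iii (SD, n = 3) and between 6.28 and 7.21 CPM in the other lines. *Aen*, an apoptosis-enhancing nuclease, was at 9.07 ± 1.36 CPM in control and 16.8 ± 1.12 CPM in #iii, where it was called higher than control, while it was lower in #iv, #v and in vivo AKP. *Tnfrsf10b*, *Apaf1*, *Ei24*, *Phlda3*, *Pidd1*, *Pmaip1* and *Rps27l* were lower in organoid AKP, with log2FC values between -2.26 and -0.28.

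Of the 5 DNA repair and nucleotide supply members, 2 were lower and 2 higher in organoid AKP, near the 33.6% and 37.3% of all genes. *Ercc5*, the XPG nuclease of nucleotide excision repair, was at 48.1 ± 2.25 CPM in control (SD, n = 6) and 28.1 ± 4.67 CPM in #iii (SD, n = 3), with the other AKP lines between 10.4 and 17.8 CPM. *Polk*, a translesion polymerase, was also lower in each AKP line. *Ddb2*, which recognises ultraviolet damage, was at 5.80 ± 1.69 CPM in control and between 9.73 and 14.8 CPM in AKP lines, higher in each, and *Rrm2b*, a ribonucleotide reductase subunit, was higher in each line but #v. *Xpc* lay between 19.8 and 27.6 CPM in all 8 lines.

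Of the 9 members that act in metabolism, redox balance or mTOR control, 5 were lower and 2 higher in organoid AKP (33.6% and 37.3% of all genes). *Ddit4l*, an inhibitor of mTORC1 also called REDD2, was at 31.4 to 51.2 CPM (median 38.4) in control and 0.178 to 1.30 CPM (median 0.528) in organoid AKP, a log2FC of -6.13 (SE 0.27, adjusted p = 4.53e-20, edgeR). The values in #i were 0.585, 0.584 and 0.340 CPM of *Ddit4l*, those of #ii 1.15, 1.31 and 1.15 CPM, those of #iii 11.3, 7.86 and 7.36 CPM, those of #iv 0, 0.310 and 0.261 CPM, those of #v 1.15, 1.39 and 0.357 CPM, and in vivo AKP 1.60 to 3.91 CPM (median 2.46). The lines fell into 4 steps without overlap, from control through #iii and in vivo AKP to the other AKP lines. *Dcxr*, a carbonyl reductase, was at 171 ± 24.8 CPM in control (SD, n = 6) and between 7.15 and 24.5 CPM in AKP lines, with 14.9 ± 1.62 CPM in #iii (SD, n = 3). *Sesn1*, a leucine sensor upstream of mTORC1, was lower in each AKP line, and its lowest mean, 2.27 ± 0.783 CPM, was in #iii.

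*Tigar*, a fructose bisphosphatase, was at 22.1 ± 2.18 CPM in control and 50.2 ± 3.87 CPM in #iii, and higher than control in each AKP line. *Gdf15*, a secreted stress cytokine, was at 98.1 ± 32.3 CPM in control (SD, n = 6) and 224 ± 13.8 CPM in #iii (SD, n = 3), its highest line. *Gdf15*, *Sesn2*, *Bbc3*, *Pmaip1* and *Tnfrsf10b* also respond to ATF4, the factor of the amino acid and endoplasmic reticulum stress response. Of 12 ATF4 stress genes, 11 were higher in organoid AKP, #i, #iii and #iv than in control and all 12 in #ii, #v and in vivo AKP. Between 33.3% (#iv) and 38.9% (in vivo AKP) of all tested genes were higher than control. Against organoid AKP, 3 of the 12 ATF4 genes were higher in #iii (7.44% of all genes), 3 in #ii (11.9%) and 2 in #i (3.10%). The part of these genes in the levels of the 5 shared members was not tested.

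The 6 lines that were mutated by OptoCre were compared with one another by an F test. Of 38 members, 26 differed among them, where 50.2% of all tested genes did. Without #iii, 15 of 38 members differed among the remaining 5 lines, where 43.3% of all genes did. The 6 members with the smallest p were *Eda2r* (adjusted p = 2.79e-18), *Ccng1* (4.95e-15), *Zmat3* (5.67e-12), *Ddit4l* (3.88e-11), *Psrc1* (1.68e-08) and *Trp53inp1* (5.63e-08, edgeR). Without #iii the adjusted p of these was 0.0137, 0.138, 0.267, 0.0502, 0.000156 and 0.560 in the same order. *Eda2r* and *Psrc1* therefore still differed among the other lines. For *Eda2r* this rests on levels near the floor, with 1 count in organoid AKP and 1 in #iv, and it passed the expression filter only through control and #iii. Over the 7 AKP lines, 24 of 38 members had their highest mean in #iii, which was the highest line for 14.5% of all tested genes.

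Each mini-colon line was then set against organoid AKP, a comparison added after #iii had been seen to stand apart. In #iii, 18 of 38 members were higher and none lower, where 7.44% of all tested genes were higher and 8.78% lower, and the median log2FC was 0.54. Only *Apaf1*, *Dcxr*, *Ddb2*, *Rrm2b* and *Sesn1* had a negative log2FC, with *Sesn1* the 1 lower member at an unadjusted p under 0.05. DESeq2 called 1 member lower and limma-voom 0. By role, all 3 feedback members, 8 of 13 apoptosis members, 4 of 8 cell cycle members, 2 of 9 metabolism members and 1 of 5 repair members were higher. In #i, *Perp*, *Plk2* and *Rps27l* were higher and *Dcxr* lower (3.10% and 4.05% of all genes). In #ii, *Ccng1*, *Eda2r*, *Plk2* and *Rps27l* were higher and 8 members lower (11.9% and 12.7%). In #v, *Btg2* and *Eda2r* were higher and *Plk2* lower (5.11% and 5.48%), while within the F libraries, the only letter of #v and #iv, 3 were higher and 8 lower (14.5% and 13.7%). The calls of *Eda2r* in #ii and #v rest on levels near the floor, with 1 count in organoid AKP. In #iv, edgeR, DESeq2 and limma-voom each called 0 members in either direction (2.54% and 2.35% by edgeR), with 3 higher (*Btg2*, *Pmaip1* and *Tnfrsf10b*) and 3 lower (*Ak1*, *Ercc5* and *Mdm2*) at an unadjusted p under 0.05. Within F libraries, edgeR called 2 members higher and 3 lower in #iv (6.53% and 6.69%). The small counts of these lines also rested on single libraries. With any 1 library of #i left out, 1 member was higher in #i and 0 lower, and 4 were lower without organoid AKP replicate 1 or 3 and 0 without replicate 4, 5 or 6. In #ii, 0 were higher without its replicate 1 and 2 without its replicate 2 or 3 or organoid AKP replicate 5, while 5 were lower without its replicate 2 or 3 or organoid AKP replicate 4 or 6, and 4 with the letter as a term. In #v, 0 were higher without its replicate 3 and 2 lower without organoid AKP replicate 2. In #iii, 1 was lower without organoid AKP replicate 3 or 6. The medians of these 4 lines lay between -0.10 and -0.03. These comparisons share the organoid AKP libraries. With the E libraries alone, which leaves out the organoid AKP libraries of letter F, 19 members were higher and none lower in #iii (7.68% and 8.58% of all genes). Of the 18 members higher in #iii, 15 were lower in organoid AKP than in control, 2 (*Gdf15* and *Plk2*) were higher and *Aen* was not called. Both sets of calls use the organoid AKP libraries, so low values there favour both. Of all 38 members, 26 were lower in organoid AKP than in control.

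The increases in #iii over organoid AKP ranged widely in size. *Eda2r* differed by a log2FC of 8.16 (SE 0.39, adjusted p = 6.49e-17, edgeR), a fitted value that rests on 1 count in organoid AKP. For *Ddit4l* it was 3.98 (SE 0.34, adjusted p = 2.23e-10), for *Ccng1* 2.25 (SE 0.13, adjusted p = 7.71e-15) and for *Trp53inp1* 2.20 (SE 0.25, adjusted p = 1.29e-07). *Zmat3* differed by 1.61 (SE 0.13, adjusted p = 2.61e-11), *Psrc1* by 1.22 (SE 0.20, adjusted p = 5.52e-05) and *Mdm2* by 1.05 (SE 0.14, adjusted p = 3.03e-06). *Cdkn1a* differed by 0.98 over all libraries (SE 0.51, adjusted p = 0.187), but by 2.32 within E libraries (SE 0.15, adjusted p = 3.49e-11), where organoid AKP was at its lower level. *Trp53* tags were higher by 2.53 (SE 0.25, adjusted p = 7.11e-09) and by 2.14 within E. Against control, #iii was lower for *Ccng1* (log2FC -1.45), *Trp53inp1* (-1.45), *Zmat3* (-1.20), *Psrc1* (-0.97) and *Eda2r* (-0.74).

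**Figure D3:**
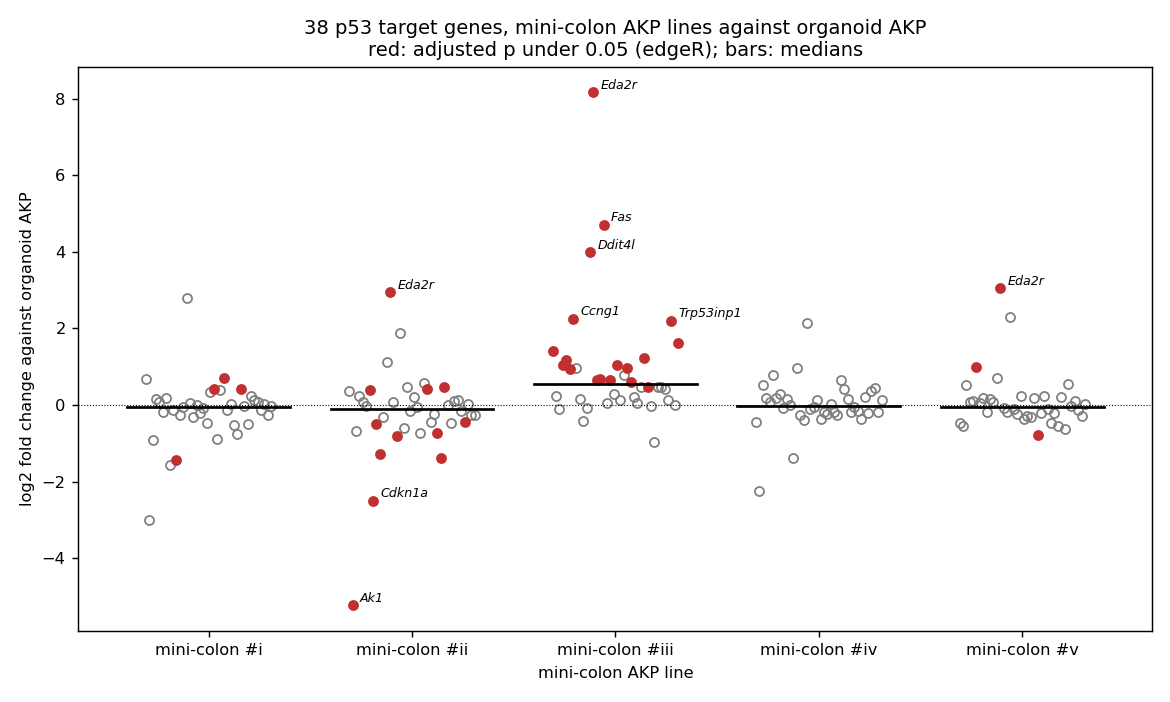
Log2FC of each of the 38 members in each mini-colon AKP line against organoid AKP. Filled red points have an adjusted p under 0.05 (edgeR), open points do not, and bars are medians; fitted values of *Eda2r* and *Fas* rest on 1 and 0 counts in organoid AKP, and those of *Ak1* in #i, #ii and #iv and of *Ddit4l* in #iv on 0 to 2 counts. The median of #iii is 0.54 with 18 red points above 0, and the other medians lie between -0.10 and -0.03.

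Genes around p53 that were not members were examined in the same way. Of 20 regulators of p53, 18 passed the filter, and 8 were higher and 6 lower in organoid AKP than in control, near the 37.3% and 33.6% of all genes. In #iii, *Trp53*, *Mdm4* and *Usp7* were higher and *Cdkn2a* and *Chek2* lower than in organoid AKP. *Mdm4*, the MDM2 relative that blocks p53, was at 71.9 ± 5.07 CPM in #iii and 51.6 ± 7.08 CPM in organoid AKP (log2FC 0.49, SE 0.16, adjusted p = 0.0294), and *Ppm1d*, the WIP1 phosphatase, was at 21.7 CPM in both. The checkpoint kinase genes *Chek1*, *Chek2* and *Atr* rose from control to organoid AKP by log2FC values of 3.25, 2.55 and 1.62. Of 27 further p53 targets, 23 passed the filter, of which 8 were higher and 10 lower in organoid AKP than in control, beside the same 37.3% and 33.6% of all genes. Their median log2FC was 0.01, close to the 0.06 of all genes and unlike the -1.24 of the 38 members. In the other AKP lines, between 7 and 11 of the 23 were lower than control and between 5 and 7 higher. Of all tested genes, 29.6% (#iv) to 33.9% (#ii) were lower in these lines and 33.3% (#iv) to 38.9% (in vivo AKP) higher. In #iii, *Ddias*, *Ephx1*, *Ptp4a3*, *Pvt1*, *Triap1* and *Zfp365* were higher than in organoid AKP and *Thbs1* lower. *Ephx1*, the microsomal epoxide hydrolase, was at 298 ± 34.0 CPM in control, 12.4 ± 3.33 CPM in organoid AKP and 59.5 ± 6.76 CPM in #iii, and *Ptp4a3*, a phosphatase, was at 96.1 ± 24.4, 11.4 ± 2.16 and 27.6 ± 1.73 CPM. *Cx3cl1*, a chemokine, and *Abhd4*, a lipase, fell from control to organoid AKP by 3.33 and 2.31 on the log2 scale and were not among those higher in #iii. Fibroblast markers summed to 4.57 to 6.08 CPM in #iii and 4.42 to 22.7 CPM in organoid AKP, and immune markers to 6.31 to 7.18 and 5.18 to 12.6 CPM, so that these markers overlapped between the lines.

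In vivo AKP was compared with organoid AKP as the line of the same genotype by label that arose in a mouse. Of 38 members, 5 were higher in in vivo AKP and 9 were lower, where 17.4% of all tested genes were higher and 17% lower, and the median log2FC was -0.16. Within F libraries, 9 were higher and 10 lower (25.8% and 24.5% of all genes). *Btg2* was the member with the largest increase, by 2.46 (SE 0.21, adjusted p = 2.70e-11, edgeR), and its libraries did not overlap between the lines. *Ddit4l* rose by 2.21 (SE 0.35, adjusted p = 5.77e-06), *Trp53inp1* by 1.10 (SE 0.22, adjusted p = 0.000182) and *Bbc3* by 0.62 (SE 0.15, adjusted p = 0.00101), and *Apaf1*, the apoptosome scaffold, by 0.65. Libraries of both lines did not overlap for *Btg2*, *Ddit4l*, *Trp53inp1* and *Bbc3*, 4 of 38 members, beside 7.19% of all tested genes that were higher without overlap. *Perp* fell by 1.11 (SE 0.09, adjusted p = 1.24e-12) and *Psrc1* fell by 1.10 (SE 0.19, adjusted p = 2.05e-05), both without overlap. With *Ckap2* and *Ddb2*, 4 members were lower without overlap, beside 6.99% of all tested genes. *Gtse1*, *Ckap2*, *Ddb2*, *Ccng1*, *Tnfrsf10b*, *Plk2* and *Rps27l* were lower, with log2FC values between -0.83 and -0.34. Beside *Gtse1*, *Psrc1* and *Ckap2*, 13 of the 20 cell cycle genes of the DREAM list were lower in in vivo AKP.

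*Trp53* tags were 3.87 log2 units higher in in vivo AKP than in organoid AKP (SE 0.20, adjusted p = 6.01e-17, edgeR) and *Cdkn2a* 1.82 units higher (SE 0.08, adjusted p = 2.23e-19). *Cdkn1a* (log2FC -0.29, SE 0.43, adjusted p = 0.654), *Mdm2* (-0.05, SE 0.12, adjusted p = 0.794) and *Zmat3* (0.23, SE 0.11, adjusted p = 0.111) did not pass the test, and *Eda2r* was at 1 and 2 counts in total in the lines. Against control, *Trp53* tags in in vivo AKP were higher by 0.57 (SE 0.16, adjusted p = 0.00152), and by 0.26 within F libraries (adjusted p = 0.141). Fibroblast markers summed to 38 to 275 CPM in in vivo AKP, nearly all of it *Vim*, and their part in these differences was not tested.

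**Figure D4:**
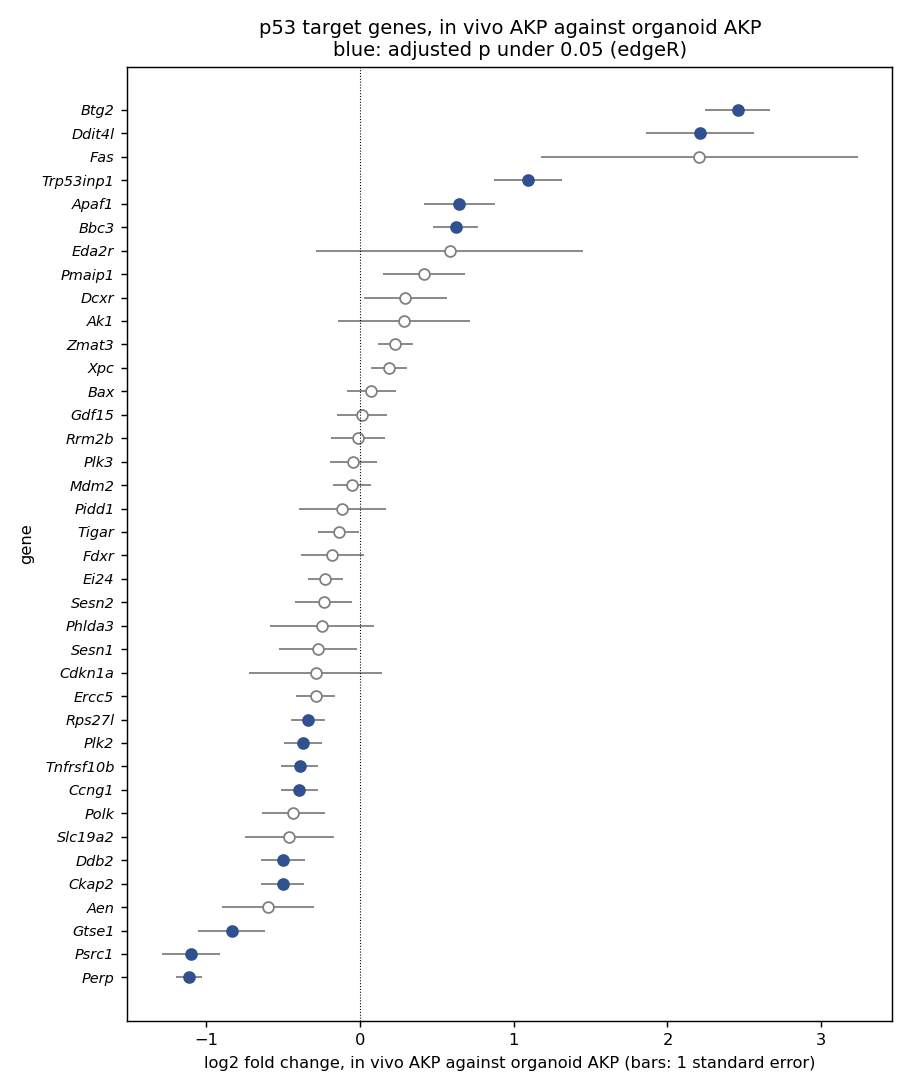
Log2FC of the 38 members in in vivo AKP against organoid AKP, ordered by size, with 1 standard error (SE) on each side. Filled blue points have an adjusted p under 0.05 (edgeR); *Fas* and *Eda2r* rest on 0 to 3 counts in each line. *Btg2* and *Ddit4l* lie above 2, and *Psrc1* and *Perp* lie below -1.

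The study also set a crypt-enriched line, #v, against a lumen-enriched line, #i. Of 38 members, 3 were higher in #v (*Btg2*, *Apaf1* and *Dcxr*) and 6 lower (*Mdm2*, *Plk2*, *Perp*, *Aen*, *Rps27l* and *Sesn2*), where 12.5% of all tested genes were higher and 11.9% lower. *Plk2* fell by 1.48 (SE 0.18), *Perp* by 0.70 (SE 0.12) and *Mdm2* by 0.71 (SE 0.17), and *Dcxr* rose by 1.60 (SE 0.44). All libraries of #i carry letter E and all of #v letter F, so line and letter cannot be told apart within these 6 libraries. Fibroblast markers summed to 40.4 to 118 CPM in #v and 4.09 to 8.75 CPM in #i. Of these 6 markers only *Vim* passed the expression filter, at means of 66.5 CPM in #v and 5.90 CPM in #i. *Vim* was 3.46 log2 units higher in #v (adjusted p = 0.00421, edgeR). Between E and F libraries it was at 40.0 and 249 CPM in in vivo AKP, and at 11.8 and 11.6 CPM in organoid AKP. The part of *Vim* and the other markers in the differences between #v and #i was not tested. With the letter as a term in the model of all lines, 0 members were higher and 2 lower.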

How the data were processed

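The deposited values were raw counts per gene identifier, which the authors made by aligning QuantSeq reads with STAR to GRCm39; the annotation, counting tool and strand setting are not given in the sources used here. Antisense or overlapping genes can therefore not be told apart. Symbols and positions came from GENCODE M39, which named 31674 of 32285 identifiers, and the 611 others held 6.85% of counts. Counts were tested in R 4.3.3 with edgeR 4.0.16 (robust quasi-likelihood, TMM, 1 coefficient for each of 8 lines, at least 1 CPM in at least 3 libraries) and Benjamini-Hochberg adjustment over 13606 genes at 0.05. Alternatives were RLE scaling, no filter, DESeq2 1.42.0, limma-voom 3.58.1, fewer libraries, named identifiers only, the replicate number and the library letter. Levels are TMM-scaled CPM. The script was tested on simulated data. Zero counts were given a floor of 3 counts over the line, and intervals cover counting error only. The members, gene lists and tests were chosen with earlier results of these data known. Genes named in full were *Trp53*, *Cdkn1a* and *Mdm2*, and the members with the smallest p, 8 in organoid AKP against control, 6 in in vivo AKP against organoid AKP and 6 in the F test; *Cdkn2a* and other genes were named by list or after their values were seen. Promoter windows were searched by script for the p53 consensus. Replicate numbers did not pair the libraries, since only 10 of 93 same-numbered pairs of different lines had deviations from line means that correlated above 0.1. 1 of the engineered alleles is not reported here.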

Additional observations from a re-analysis of the deposited data

Results flagged for a closer look

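The letter of the library code changed how far some members differed between lines, by a term for line and letter in an edgeR model of control, organoid AKP and in vivo AKP. For organoid AKP against control, 7 of 38 members had such a term (13.2% of all genes), and the log2 fold change with F minus that with E was 2.04 for *Cdkn1a*, 1.12 for *Phlda3*, -0.65 for *Sesn2*, -0.98 for *Gdf15*, -1.36 for *Pidd1*, -0.73 for *Tigar* and -0.50 for *Rps27l*. For in vivo AKP against organoid AKP it was again 7 of 38 (21% of all genes), with differences of 1.69 for *Pmaip1*, 1.15 for *Dcxr*, 0.81 for *Gdf15*, 0.69 for *Btg2*, -0.93 for *Sesn2*, -0.57 for *Ccng1* and -0.53 for *Perp*. *Pmaip1*, which encodes the BH3-only protein NOXA, fell by 0.63 in in vivo AKP within E and rose by 1.06 within F. *Cdkn1a* differed from control by -5.31 within E and -3.27 within F.

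Sets of 6 libraries of a line, each holding both letters, were examined for single libraries far from the other 5. Such libraries were found in 8 of 116 sets, near the rate of about 1 in 20 that chance alone gives. In organoid AKP these were *Trp53* in replicate 3 at 3.77 CPM, *Eda2r* in replicate 4 at 0.178 CPM (the only count in that line), *Ddit4l* in replicate 2 at 1.30 CPM and *Pidd1* in replicate 2 at 7.15 CPM. In control they were *Rrm2b* in replicate 2 at 11.2 CPM and *Fdxr* in replicate 3 at 8.33 CPM. In in vivo AKP they were *Ak1* in replicate 2 at 2.50 CPM and *Ercc5* in replicate 3 at 11.5 CPM.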

How the results depend on the processing

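The counts of members lower than control were within 1.5 times of the values given under every alternative in all 7 lines, for example 23 to 28 in organoid AKP, 21 to 22 in #iii and 26 to 29 in in vivo AKP with other settings, and 25 to 27, 20 to 22 and 26 to 28 with a library left out. The 18 members higher in #iii than in organoid AKP were 17 to 20 with other settings and 15 to 19 with a library left out. The members that differed among the OptoCre lines fell from 26 to 15 without #iii. The members higher in #iv than control went from 5 to 3 with RLE size factors, no filter, DESeq2, named identifiers only, only the lines compared or #iii left out (3 to 5 with a library left out). The other changes were in small counts against organoid AKP and between #v and #i. With DESeq2, members lower than organoid AKP were 4 in #i, 1 in #iii and 3 in #v; with no filter or limma-voom, 0 in #i; and with the letter as a term, 0 in #i, 4 in #ii and 3 in #v, while #v against #i had 2 lower and 0 higher. With F libraries alone, 3 members were lower and 2 higher in #iv than in organoid AKP, 8 were lower in #v and 9 higher in in vivo AKP. With only the lines compared, 2 were lower in #i, 1 higher in #iv, 2 lower and 1 higher in #v, and 5 higher in #v than in #i. With a library left out, the ranges were 0 to 4 lower and 1 to 3 higher in #i, 5 to 9 lower and 0 to 5 higher in #ii, 0 to 1 lower in #iii, and 1 to 2 lower and 0 to 2 higher in #v. The cause of these changes was not tested.

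Replicate numbers are shared between lines but did not pair the libraries, since same-numbered pairs correlated at a median of 0.0087. Within the lines of 6 libraries the deviations followed the letter, with a median correlation of 0.116 between different numbers of the same letter and -0.118 between letters. With the replicate block, members higher than control were 5 in #v, members lower than organoid AKP were 0 in #i, 4 in #ii, 4 in #iv and 4 in #v, and members higher were 7 in #iv and 5 in #v. Numbers 4 to 6 occur only in F libraries of the lines with 6 libraries, while the F libraries of #iv and #v are numbered 1 to 3. The block therefore takes up the letter in the lines with 6 libraries but not in #iv and #v. Over 54 results of single genes, 1160 of 1165 alternative values kept their side of the threshold. Direction was compared only where the main or the alternative fit passed the threshold, and there 0 reversed. The 5 others were *Cdkn1a* in #iii against organoid AKP, past the threshold with the replicate block (1.99), the letter as a term (1.98) and E alone (2.32), *Cdkn1a* in in vivo AKP against organoid AKP with E alone (-0.66), and *Trp53* in in vivo AKP against control with F alone (0.26, not past it). The F test and #v against #i could not be given within 1 letter. Depth limits *Eda2r*, *Fas* and *Ak1*, which held 0 to 4 counts over several AKP lines, and *Ddit4l*, with 2 counts in #iv.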
